A study of Mus musculus with 4 samples.

Results

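RNA of fetal brain was compared between C57BL/6J mice whose dams had been food restricted (FR) and C57BL/6J mice whose dams ate control chow. FR dams received 50% of the control amount of chow from gestation day 10 to 17, control dams ate the same CE-2 chow ad libitum, and fetuses were delivered by caesarean section on gestation day 18. RNA of 5 fetuses was pooled per condition, and the FR pool and a control pool were hybridised together on 2 Agilent arrays with the dyes exchanged. These 2 arrays are 2 of the 4 in the series, chosen by their sample titles; the other 2 compare overnight maternal food deprivation (FD, gestation day 17) with control in the same way. Each condition is thus 1 pool (n = 1), both arrays carry the same pair of pools, and only technical error can be estimated. No test was made, and a difference between litters or pools cannot be told apart from one between diets. According to the study's design the brains were dissected under a microscope so as to avoid other tissue. The sex of the fetuses is not stated, nor is whether the FD and FR arrays share a control pool.

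The fetal brain takes glucose and amino acids from the mother through the placenta, and in late gestation neurons are still maturing while astrocytes and the oligodendrocyte lineage are beginning to expand. Maternal undernutrition in this period lowers fetal insulin-like growth factor signalling and the fetal brain can burn ketone bodies beside glucose; such undernutrition is studied as a model of the developmental origins of adult disease. Cells short of nutrients are known to change chaperone, lipid, mitochondrial and RNA-processing genes, so lists of such genes and markers of the cell types of the brain were examined.

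A 2-colour ratio is given throughout as log2(FR/control), so that 1 is a 2-fold higher and -1 a 2-fold lower signal in the FR pool. A gene counted as measured when a probe of it was well above background in both pools on both arrays and was free of the scanner software's outlier flag on both; its brightest such probe stood for it. The flag alone left out 1803 further genes. In all, 18541 genes were measured, 14612 of them with a gene symbol. On array 1, 84.2% of spots were well above background in the FR channel and 75.6% in the control channel, and on array 2 the shares were 75.6% and 85.3%. Of 19 markers shared by all neurons 14 were measured, and the 12 of them measured on all 4 arrays had a mean log2 channel level (the normalised signal of one dye) of 11.7 in the FR pool and 11.8 in its control, so defining markers of the labelled tissue were present. The SD over genes of array 1's deviation from the mean of both arrays, a measure of technical error, was 0.131, and the SD of the mean log2 ratios themselves was 0.202. Array 2 had 42 spots with a high local background, which were left out.

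At least a 1.5-fold difference in the same direction on both arrays, called past the fold below, was found for 108 genes higher in the FR pool (0.582% of those measured) and 80 genes lower (0.431%). A symbol was available for 84 of the higher and 74 of the lower genes. The split leans on the scaling: centring each array on its median without a loess curve left 31 higher and 6 lower genes, and fitting the background on all spots left 9 and 4. At 2-fold, 19 genes were higher and 5 lower on both arrays. Of all measured genes, 0 were past the fold in opposite directions on the arrays, while 292 passed on array 1 alone and 246 on array 2 alone with the sign kept on the other array. Across genes, which are not independent replicates, the arrays correlated at r = 0.409. For orientation, just inside the 1.5-fold size lay Rev1 (0.59 and 0.75 on arrays 1 and 2) and Dynll1 (-0.70 and -0.59), and just outside it Ing2 (0.58 and 0.71) and Ciao1 (-0.65 and -0.58). On the FD arrays the same rule took 16 of 17945 genes as higher (0.0892%) and 23 as lower (0.128%), 0.217% in all.

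**Figure D1:**
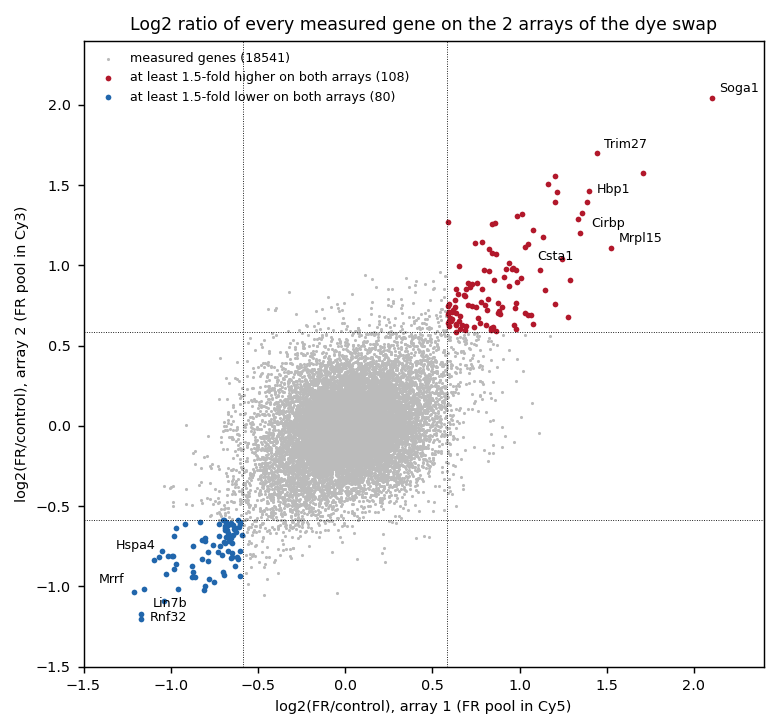
Each point is a measured gene, with log2(FR/control) on array 1 on the x axis and on array 2 on the y axis; dotted lines mark 1.5-fold. The 108 higher genes (red) and 80 lower genes (blue) lie in the corners where both arrays agree in sign, Soga1 at 2.10 and 2.05 farthest out, within a cloud of 18541 genes.

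The highest genes included a gene tied to autophagy, RNA-binding proteins and several transcripts named only by a clone. Soga1, named for suppressing glucose production through autophagy, had a log2 channel level of 11.98 in FR and 9.87 in control on array 1, and of 12.70 and 10.65 on array 2. The pools thus stood apart by 2.10 and 2.05, a 4.21-fold difference in the mean. Hbp1, a repressor of cell cycle genes and a target of FoxO factors, lay at 8.80 against 7.41 on array 1 and 8.73 against 7.34 on array 2, 1.39 on both. FD gave 1.00 for Soga1 and 0.60 for Hbp1 in the mean of its arrays. The size for Hbp1 belongs to this probe: a brighter probe, left out because its spot on array 2 was flagged, read 0.16 on array 1 and 0.06 in FD. Below them came Mir9-3hg, the host transcript of a brain microRNA, at 1.31, Armcx5 at 1.15, Nosip, a ubiquitin ligase that binds nitric oxide synthase, at 1.15, and the E-box transcription factor Usf2 at 1.07. Ivns1abp stood at 1.00, while a brighter flagged probe of it read -0.28 on array 1, and the RNA exosome nuclease Dis3 at 0.98. Another measured probe read -0.15 and 0.16 for Nosip, -0.66 and 0.17 for Usf2 and 0.03 and 0.21 for Dis3. That of Soga1 read 0.81 and 0.77. The RIKEN transcripts 1700093K21Rik (1.43), 1700125H20Rik (1.38), 1500004A13Rik (1.34) and 8430419K02Rik (0.98), with Fam71e1 at 1.34, have no function stated here.

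The lowest genes included mitochondrial and ciliary proteins, enzymes and channels. Rnf32, a RING-finger protein, had channel levels of 8.98 in FR and 10.15 in control on array 1, and 9.18 and 10.35 on array 2. Its ratio of -1.17 on each array made it 2.25-fold lower, and FD gave -0.58. Lin7b, a scaffold protein of synapses, lay at -1.15 and -1.02, and the serine protease Prss56 at -1.04 and -1.09. Wdr78, an axonemal dynein protein, was at -0.99, the deglycating kinase Fn3k at -0.98, Zbtb40 at -0.97, the inward-rectifier potassium channel Kcnj12 at -0.94 and the transcription factor Zgpat at -0.92. Mettl3, the catalytic subunit of the RNA m6A methyltransferase, had levels of 9.52 in FR and 10.51 in control on array 1 and of 9.90 and 10.71 on array 2, a mean of -0.90. The diacylglycerol kinase Dgkk (-0.91), the ciliary protein Tmem107 (-0.90), the translation inhibitor Pdcd4 (-0.83), the T-type calcium channel Cacna1g (-0.82) and the lysine methyltransferase Smyd3 (-0.81) followed. Riox2 was at -0.87, the centriolar Spice1 at -0.86, and the non-coding Ccpg1os and Dubr at -0.90 and -0.81. Another measured probe read -0.28 and 0.01 for Cacna1g, -0.22 and 0.10 for Spice1 and -0.01 and -0.16 for Zbtb40. Other probes of Smyd3 had means of -0.04 and 0.17. That of Rnf32 read -1.06 and -0.86.

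**Figure D2:**
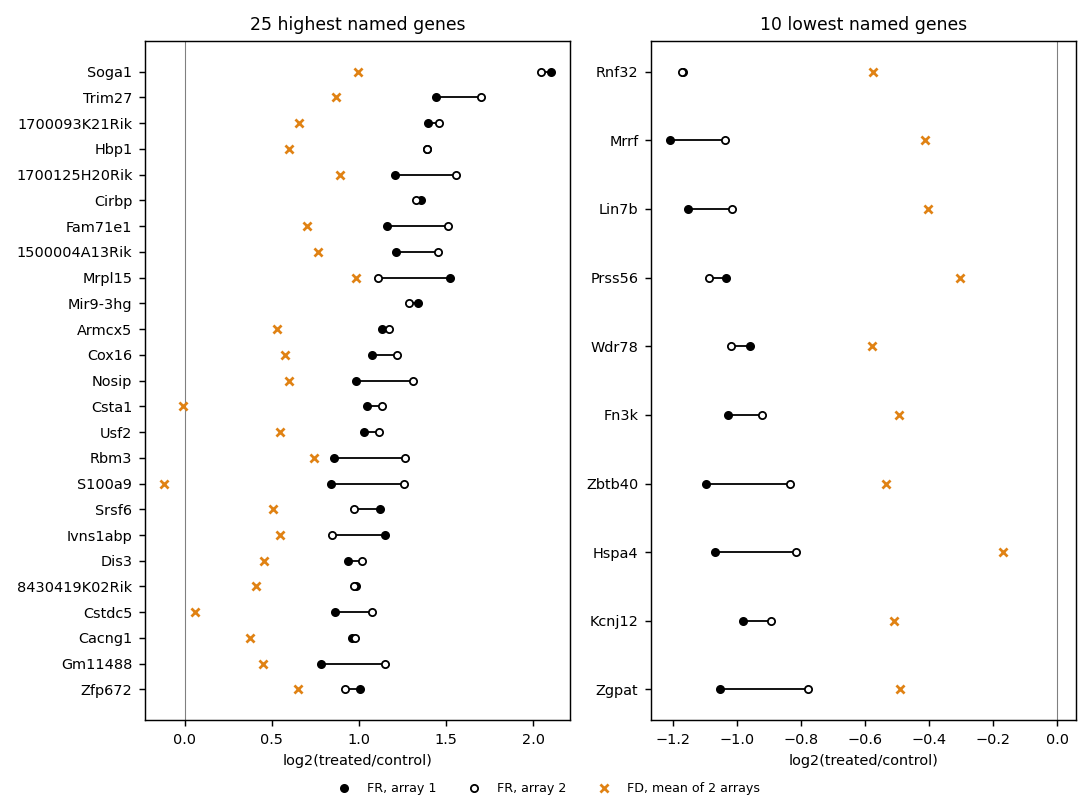
Log2(treated/control) of the 25 highest (left) and 10 lowest (right) named genes; filled and open circles are FR arrays 1 and 2 joined by a line, and orange crosses the mean of both FD arrays where the gene was measured. Both FR arrays lie on the same side of 0 for every gene drawn, as the choice of the genes requires. The FD values of Csta1, S100a9 and Cstdc5 lie between -0.12 and 0.06.

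Cold-inducible and splicing-related RNA-binding proteins held 4 of the higher genes. Cirbp, the cold-inducible RNA-binding protein, had channel levels of 14.78 in FR and 13.42 in control on array 1 and of 15.13 and 13.80 on array 2, so it was 2.54-fold higher (1.36 and 1.33). Rbm3, a cold-inducible relative of it, lay at 14.02 against 13.16 and at 14.67 against 13.40 (0.86 and 1.27). Rbm3 stood at 0.75 in FD, where Cirbp was not measured. Srsf6, an SR splicing factor, was at 1.12 and 0.97, and Hnrnpdl, a nuclear RNA-binding protein, at 0.82 and 1.1. Of 34 measured members of the list of cold proteins, SR proteins and CLK kinases, these 4 (11.8%) were past the fold. None passed as lower, and 1.01% of all genes passed in either direction. That list was chosen with earlier results of these data known, so its share is no independent evidence. The median of the list was 0.08, against 0.01 for all measured genes. On both arrays 17 members were positive and 7 negative, against 28.3% and 27.4% of all genes. A second measured probe of Rbm3, near background, gave -0.22 and -0.07. The probe of Gm11488, a predicted gene at 0.97, shares 24 bases with that of Hnrnpdl, so these 2 signals are not independent. Ptbp2, the neuronal polypyrimidine tract-binding protein, was past the fold on both of its measured probes, at 0.87 and 0.71. A still brighter probe of Ptbp2, left out because it was flagged on both arrays, read 0.48 and 0.17.

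Stefin A genes and S100a9, products abundant in neutrophils, were higher in the FR pool, and their ratios in FD lay near 0. S100a9 had channel levels of 9.84 in FR and 9.0 in control on array 1 and of 10.38 and 9.12 on array 2, against 8.80 in the FD pool and 8.91 in its control. Csta1, a stefin A inhibitor of cysteine proteases, lay at 9.18 against 8.13 and at 9.28 against 8.15, and at 8.01 and 8.02 on the FD arrays. The FR pool stood above all other pools for both. Cstdc5 was at 0.97 and Stfa1 at 0.92, and S100a8, the partner of S100a9, had 0.58 and 0.59 on arrays 1 and 2, just short of the 1.5-fold size. The neutrophil list, which was drawn up in earlier work after S100a9 and Csta1 had been seen, is no independent evidence; 14 of its 24 genes were measured, 4 were past the fold as higher (28.6%, against 0.582% of all genes), 10 were positive on both arrays, as 28.3% of all genes were, and the median was 0.47 (FD 0.00). Its granule genes did not share that size: myeloperoxidase (Mpo) was at 0.08, Prtn3 at 0.07, Ctsg at -0.06 and Mmp9 at -0.43. Ngp, Elane, Mmp8, Cxcr2 and Fcnb were not well above background on both arrays in either pool. Camp, Retnlg and Stfa2 passed it on both arrays in FR but not on both in control. In bulk tissue, fewer or more cells of a type and less or more RNA per cell cannot be told apart.

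The stefin probes are shown because their letters limit how many of these signals are separate. The stefin A genes lie close together on chromosome 16, Stfa1 and Cstdc5 within 74.1 kb of each other by their probes. Capitals mark the 19 bases that the probes of Csta1, Cstdc5 and Stfa1 have in common. The probes of Csta1 and Cstdc5 share 45 of their 60 bases in a row, and each shares 25 with a probe of Csta2, at 0.56. The Stfa1 probe shares 21 bases with a probe of Cstdc4, also at 0.56. Each line gives 30 bases of the probe, 5′ to 3′ (build mm9: Csta1 chr16:36122322-36122351, Cstdc5 chr16:36359538-36359567, both on the minus strand, and Stfa1 chr16:36285353-36285382 on the plus strand).
Csta1 probe: tgatGAGCTGACCTACTTCTAAGcagcaaa
Cstdc5 probe: tgatGAGCTGACCTACTTCTAAGcagcaaa
Stfa1 probe: ccatggatgaaGAGCTGACCTACTTCTAAG
The printed stretches of Csta1 and Cstdc5 are identical, so the readings of the stefin genes are not independent of each other. The probe of S100a9, on chromosome 3, shares no stretch of 20 bases with a probe of another name.

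Interferon-stimulated genes had a median below 0 in the FR pool, with no member past the fold. Rtp4, a receptor-transporting protein induced by interferon, lay at -0.88 and -0.49, Bst2, the virus-tethering protein tetherin, at -0.72 and -0.54, and Ifi27 at -0.75 and -0.47 on arrays 1 and 2. All had both arrays below 0, as the naming rule requires, but array 2 did not reach 1.5-fold. Thus 0 of 31 measured members were past the fold. Of the 31, 21 were negative on both arrays and 1, the regulator Irf1 at 0.23, was positive on both, whereas 27.4% of all measured genes were negative on both arrays and 28.3% positive. The list median was -0.24 (-0.22 on each array), against 0.01 for all genes, and -0.01 on the FD arrays. Over the 30 members measured on all 4 arrays, the mean channel level was 7.89 in the FR pool, 8.13 in its control, 8.18 in the FD pool and 8.18 in its control. The same mean over all 16414 genes measured on 4 arrays was 8.49, 8.49, 8.35 and 8.35, so for this list the FR pool had the lowest of the 4 means. Irf3, a transcription factor upstream of interferon, was at -0.83 and -0.35, and the transcription factor subunit Irf9 at -0.16 and -0.61; both were chosen after their values were seen. Markers of microglia, which respond to interferon, had a median of -0.04 with 8 of 18 negative on both arrays.

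The interferon-stimulated response element, read here as GAAA, 2 free bases and GAAA on either strand with overlaps counted, was searched in the 250 bases upstream of RefSeq gene starts (build GRCm38.p6). It was found in 2.98% of 32841 promoters. Listed genes were counted once each, as holding the letters if any of their promoters did, so shares of genes and of promoters have unlike units. Of the list, 25 genes had a promoter in the table and 9 (36%) held the letters. Those 9 genes had a median of -0.29 with 8 negative on both arrays, and the 16 without had a median of -0.17 with 8. The promoters of Bst2 and of Isg15, a ubiquitin-like protein outside the naming rule that is shown because it held the most copies, are printed with the matches in capitals (Bst2 chr8:71537473-71537722 and Isg15 chr4:156200819-156201068, both minus strand).
Bst2 promoter: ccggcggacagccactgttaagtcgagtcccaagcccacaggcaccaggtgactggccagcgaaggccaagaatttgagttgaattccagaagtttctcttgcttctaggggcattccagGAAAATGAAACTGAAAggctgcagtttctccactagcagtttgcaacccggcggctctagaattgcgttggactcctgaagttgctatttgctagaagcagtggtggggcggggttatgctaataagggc
Isg15 promoter: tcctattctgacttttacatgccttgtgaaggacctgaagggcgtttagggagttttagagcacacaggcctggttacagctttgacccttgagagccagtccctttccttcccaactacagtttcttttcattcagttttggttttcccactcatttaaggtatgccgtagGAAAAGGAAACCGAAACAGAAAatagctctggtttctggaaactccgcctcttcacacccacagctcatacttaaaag
Bst2 has 2 overlapping matches that begin 130 and 124 bases before the start, and Isg15 has 3 that begin 78, 72 and 66 bases before it. Isg15 lay at -0.73 and -0.45 on the arrays. A match is a description of the letters only.

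The lists of astrocyte and oligodendrocyte lineage markers had medians below 0 in the FR pool, and those of neurons and progenitors lay near 0. Among 16 measured astrocyte markers, 11 had a negative and 2 a positive ratio on each array, against 27.4% and 28.3% of all measured genes. Their median was -0.26 (-0.24 and -0.29 on arrays 1 and 2; FD 0.08), with 0 past the fold. The calcium-binding S100b was at -0.65 and -0.34 and the water channel Aqp4 at -0.35 and -0.59. Other members went the other way, with the glutamate transporter Slc1a3 at 0.24 and 0.23 and Aldh1l1 at 0.12 and 0.08. The mean level of 14 astrocyte markers was 9.35 in FR, 9.58 in its control and 9.5 in FD and in its control. Of 18 oligodendrocyte lineage markers, Olig1, a transcription factor of the lineage, was alone past the fold (-0.83 and -0.60). That is 5.56%, against 1.01% of all genes past the fold either way. In that list 10 were negative on both arrays and the median was -0.14. Gpr17, a receptor of immature oligodendrocytes, was at -0.53 and the myelin enzyme Cnp at -0.49. By contrast the medians were -0.03 for pan-neuronal markers, 0.02 for cortical projection neurons, 0.07 for GABAergic neurons and 0.07 for neural progenitors and radial glia, with 0 members past the fold. The neurofilament Nefh was at -0.43.

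Receptors for glutamate and GABA had a median below 0. Gabrb1, a GABA-A receptor subunit, had levels of 9.32 in FR and 9.98 in control on array 1 and of 9.65 and 10.33 on array 2, a mean of -0.67. Gabra2, another subunit, lay at -0.50 and -0.85. In the list, 2 of 33 measured members, Gabrb1 among them, were past the fold (6.06%, against 0.431% of all genes lower); 20 were negative and 2 positive on both arrays, and the median was -0.17 (FD -0.05; -0.12 with flagged spots kept). Among 43 genes of synaptic vesicles, scaffolds and adhesion, Lrrtm1, a postsynaptic adhesion protein, was past the fold as higher (0.80) and Lin7b as lower, and the median was -0.04. Of 45 potassium channel genes only Kcnj12 was past the fold, with a median of -0.03 and 19 members negative on both arrays. Over all measured genes 27.4% were negative and 28.3% positive on both arrays, and 1.01% were past the fold in either direction.

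**Figure D3:**
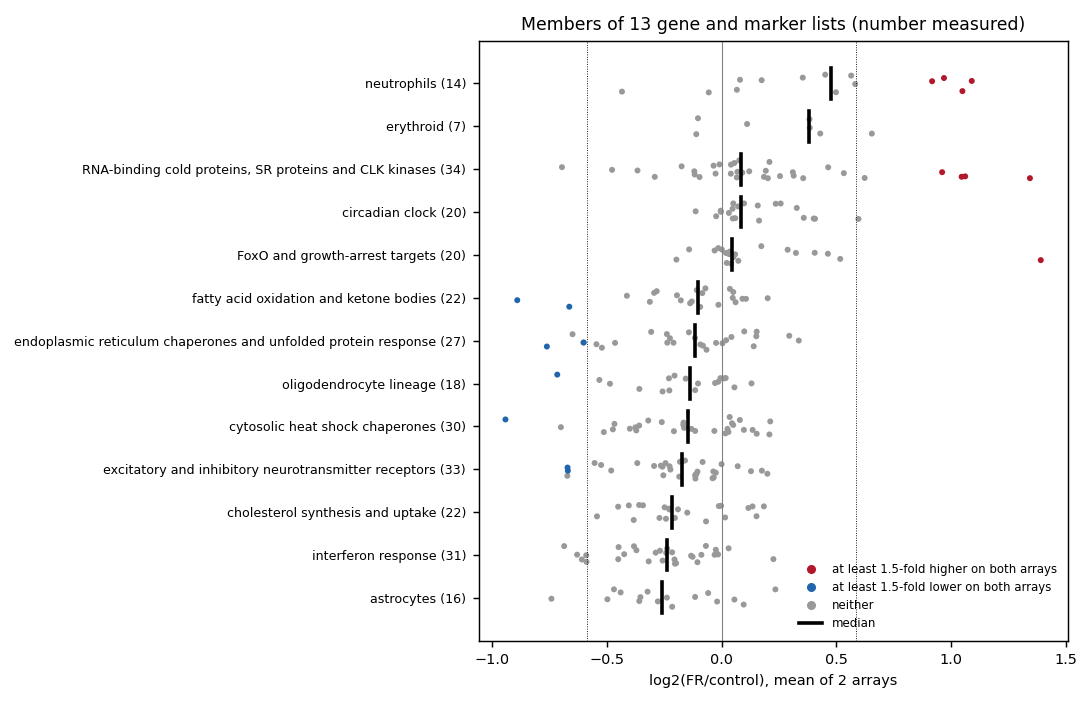
Log2(FR/control), mean of 2 arrays, of the measured members of 13 gene and marker lists (number in brackets); black bars are list medians, dotted lines mark 1.5-fold, red and blue points are past the fold on both arrays. The medians run from 0.47 for neutrophil genes to -0.26 for astrocyte markers. Single members, such as Hbp1 at 1.39 on its unflagged probe, lie far from the median of their list.

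Both chaperone lists, of the cytosol and of the endoplasmic reticulum, had medians below 0 in the FR pool, with single genes past the fold. Hspa4, a partner of Hsp70 that exchanges its nucleotide, had levels of 11.54 in FR and 12.61 in control on array 1 and of 11.92 and 12.74 on array 2, and was 1.92-fold lower. The other 2 measured probes of Hspa4 gave -0.10 and -0.07, so the size belongs to 1 probe. Of 30 cytosolic chaperone genes, 13 were negative and 2 positive on both arrays (27.4% and 28.3% of all genes) with a median of -0.15; Chordc1, a co-chaperone of Hsp90, was at -0.70 and Hspa2 at -0.51. In the endoplasmic reticulum list, Sdf2l1, part of a chaperone complex with BiP, was past the fold at -0.80 and -0.72, and the disulfide isomerase Pdia4 at -0.60 on both arrays (2 of 27, against 0.431% of all genes lower). Sdf2l1 stood at 8.06 against 8.86 and at 8.42 against 9.14 in channel level, with 8.24 and 8.82 in the FD pool and its control. Xbp1, which drives unfolded protein response genes, was at -0.65 and Derl2, which moves misfolded proteins out, at -0.60. The list had 14 of 27 members negative on both arrays and a median of -0.12, as had the FD arrays. The outlier flag left out 9 further genes of each list, central chaperones among them, which are named here after their values were seen. With flagged spots kept, Hspa5, the chaperone BiP, read -0.73 and -0.75, Creld2 -0.70 and -0.78, Manf -0.88 and -0.57, Hsp90b1 -0.39 and -0.65 and Herpud1 0.25 and 0.35. In the cytosol list Hsph1, a relative of Hspa4, read -0.78 and -1.03 and Hsp90aa1 0.02 and -0.26. With all flagged spots kept, the median was -0.11 for the endoplasmic reticulum list and -0.12 for the cytosol list.

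The endoplasmic reticulum stress element was read as CCAAT, 9 free bases and CCACG on either strand. It stood in a promoter of 6 of 22 genes of that list (27.3%) and in 0.113% of all 32841 promoters, again unlike units. The 6 genes had a median of -0.11 and the 16 without it one of -0.17. Neither gene past the fold held these exact letters. The CCAAT box alone stood in 33.9% of all promoters and was held by 16 of the 22 genes (72.7%). The 16 with the box had a median of -0.19 and the 6 without it one of -0.10. Sdf2l1, like Pdia4, held 3 copies of the box. Its promoter (chr16:17132384-17132633, minus strand, CCAAT boxes of either strand in capitals) is printed beside that of calreticulin (Calr, chr8:84846932-84847181, minus strand, element in capitals). Calr lies outside the naming rule, and was chosen because it had the lowest ratio of the 6 genes with the element (-0.57 and -0.47).
Sdf2l1 promoter: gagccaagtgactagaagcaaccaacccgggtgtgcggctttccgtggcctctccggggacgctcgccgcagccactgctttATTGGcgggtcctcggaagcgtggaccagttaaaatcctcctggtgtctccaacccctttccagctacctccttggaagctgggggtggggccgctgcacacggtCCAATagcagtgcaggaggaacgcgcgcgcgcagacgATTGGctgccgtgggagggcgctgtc
Calr promoter: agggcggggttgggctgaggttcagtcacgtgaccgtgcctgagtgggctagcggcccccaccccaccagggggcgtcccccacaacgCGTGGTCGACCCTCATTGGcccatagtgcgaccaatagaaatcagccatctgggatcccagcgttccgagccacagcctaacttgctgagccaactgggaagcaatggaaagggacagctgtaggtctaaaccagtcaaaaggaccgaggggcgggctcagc
The element of Calr spans 162 to 144 bases before the start. The heat shock element (GAA, 2 free bases, TTC, 2 free bases and GAA, either strand), by comparison, stood in 0.466% of all promoters. In the cytosolic chaperone list 2 of 24 genes had a promoter with it, and Hspa4 was not among them.

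Among genes of fuel use, growth factor binding and nutrient response, 4 were past the fold. Slc16a7, a carrier of lactate and ketone bodies in neurons, had levels of 7.42 in FR and 8.30 in control on array 1 and of 7.66 and 8.57 on array 2 (-0.87 and -0.91). Oxct1, the enzyme that activates ketone bodies in mitochondria, lay at 14.12 against 14.80 and at 14.34 against 14.99 (-0.68 and -0.65). FD gave -0.36 for Slc16a7 and -0.29 for Oxct1. They were the 2 of 22 measured genes of fatty acid oxidation and ketone bodies past the fold (9.09%, against 0.431% of all genes lower), and the list median was -0.10. Igfbp1, a fasting-induced binding protein of insulin-like growth factors, was 1.70-fold higher (0.81 and 0.72; FD 0.65 and 0.59), with Igfbp3 at 0.48 and a median of 0.06 over 14 genes of that axis. Hbp1 was the sole member of 20 FoxO and growth-arrest targets past the fold, against 0.582% of all genes higher. A brighter probe of Hbp1, left out by the flag on array 2, read 0.16 on array 1. Fbxo32, a ubiquitin ligase of atrophy, was at 0.52 and Txnip, which restrains glucose uptake, at 0.46 (0.15 and 0.77). In that list 8 members were positive and 1 negative on both arrays, against 28.3% and 27.4% of all genes. Cholesterol synthesis genes had 0 of 22 past the fold, 14 negative on both arrays and a median of -0.22, the same as in FD (-0.22). Among genes of amino acid supply and stress, the cationic amino acid carrier Slc7a3 was at -0.63 and Slc7a5, a carrier of large neutral amino acids, at 0.40, and the median was 0.04. The clock repressor Nr1d2 was at 0.60 and Per2 at 0.40 in a list with 9 of 20 genes positive and 1 negative on both arrays and a median of 0.08.

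Mitochondrial genes differed singly and in both directions. Mrrf, which recycles mitochondrial ribosomes, had levels of 9.67 in FR and 10.88 in control on array 1 and of 10.09 and 11.13 on array 2, 2.18-fold lower, and its other measured probe gave -0.78. Ndufb2, a complex I subunit, was at -0.88 and -0.94 (a brighter flagged probe read -0.30 on array 1), Bcs1l, which assembles complex III, at -0.88 on both arrays, and the mitochondrial nuclease Rexo2 at -0.86 and -0.94. Cox16, an assembly factor of cytochrome c oxidase, was higher at 1.08 and 1.22, and a second probe of it that overlaps the first by 20 bases gave 0.97 and 1.11. Mrpl15, a protein of the large mitochondrial ribosomal subunit, was at 1.53 and 1.11 on its brighter probe. Of 57 measured genes of mitochondrial ribosomes and translation, Mrpl15 and Mrrf alone were past the fold (3.51%, against 1.01% of all genes). The median was -0.03. In that list 23 were negative and 14 positive on both arrays, against 27.4% and 28.3% of all genes. For 35 respiratory chain genes the median was 0.00 with Ndufb2 alone past the fold (2.86%). The outlier flag left out 39 more respiratory chain genes and 30 more of the mitochondrial ribosome list; with them the medians were -0.02 and -0.06.

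**Figure D4:**
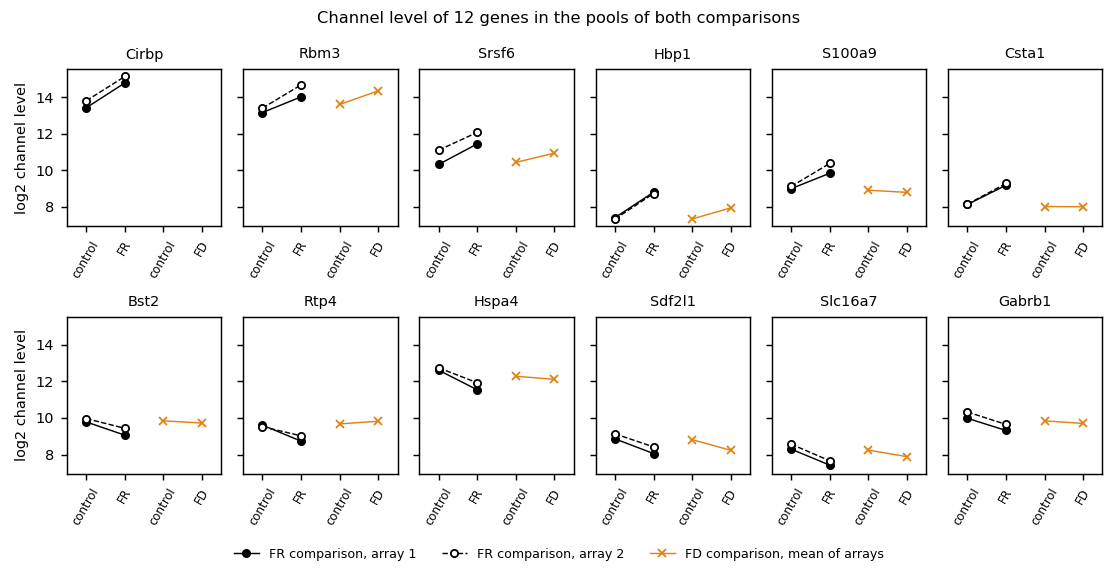
Log2 channel level of 12 genes in each pool; black lines join control and FR on array 1 (filled) and array 2 (open), orange lines join control and FD as means of 2 arrays, and Cirbp has no FD value because it was not measured there. The FR pool stood above its control for the first 6 genes and below it for the last 6 on both arrays, as the choice of the genes requires. S100a9 had 8.80 in FD against 8.91 in its control.

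Different probes of one gene often gave different ratios. Among the 188 genes past the fold, only those with a symbol were checked for other measured probes. Of these, 69 had another measured probe, and in 13 of the 69 another probe was past the fold too. Every other probe kept the sign on both arrays in 40, and in 15 another probe had the opposite sign on both arrays. Genes with a further probe past the fold were Soga1, Cox16, Ccl19, a chemokine, Wwp2, a ubiquitin ligase, Pold3, a subunit of DNA polymerase delta, Ptbp2, Vrk1, Rnf32, Mrrf, Gtf3c6 and the cartilage collagen Col2a1 among others. The probe pairs of Pold3, Col2a1 and Cox16 overlap on the genome, those of Pold3 starting 1 base apart, so their second readings are not separate evidence. Among the 188, 12 had a brighter probe that the outlier flag left out; with flagged spots kept it was past the fold in 1 of them, Hnrnpdl, and kept the sign on both arrays in 5. The opposite sign appeared for 1500004A13Rik (-0.86 on another probe, against 1.34), Mrpl15, Rbm3, Zfp672, Shisa9, Srr, Hnrnpul1, Ipo7, Snhg14 and Smyd3 among others. Genes represented by a RefSeq non-coding or predicted sequence were past the fold in 2.32% of cases and those represented by a RefSeq mRNA in 0.937%. The share was 0.0647% among the 4636 dimmest genes and 1.51% among the 4635 brightest, and the median GC content of the probes was 41.7% among higher, lower and all genes alike.

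The letters of 3 probe pairs show where the readings of one gene part. Each line gives the first 30 bases of a probe, 5′ to 3′, with positions on build mm9; capitals in the first mark a stretch of 26 bases that stands again in the same probe from base 35.
Mrpl15 brighter probe: CACGATGGTACTCAAAACTGGAACTAtagt
Mrpl15 RefSeq probe: gctgatacttttcaagcaaaaattaatatt
Trim27 clone probe: tatatatttgtttaagtgtgagttcatcca
Trim27 RefSeq probe: agttcacagaaaagatgcagtcagatatgg
Soga1 brighter probe: atattggtttggtttgatctttagcatttt
Soga1 other probe: gtagcagggttcggcgtcacagacctgcag
The brighter Mrpl15 probe (chr1:4771705-4771734, minus strand) was built on a cDNA clone and read 1.53 and 1.11, while the probe on its RefSeq mRNA (chr1:4767697-4767726) read -0.26 and -0.37. Such an inner repeat of at least 20 bases was present in 33 of 25977 measured probes and in 2 of the genes past the fold, Mrpl15 and Rdh10. Trim27, a ubiquitin ligase with a tripartite motif, read 1.44 and 1.70 on a clone probe (chr13:21273430-21273459, plus strand) and 0.06 and -0.03 on the RefSeq mRNA probe, which the file places across chr13:21281831-21283106. The Soga1 probes (chr2:156841636-156841665 and chr2:156843248-156843277, minus strand) are both on the RefSeq mRNA and 1.61 kb apart; the second read 0.81 and 0.77. The files give no exon or untranslated region for any probe.

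**Figure D5:**
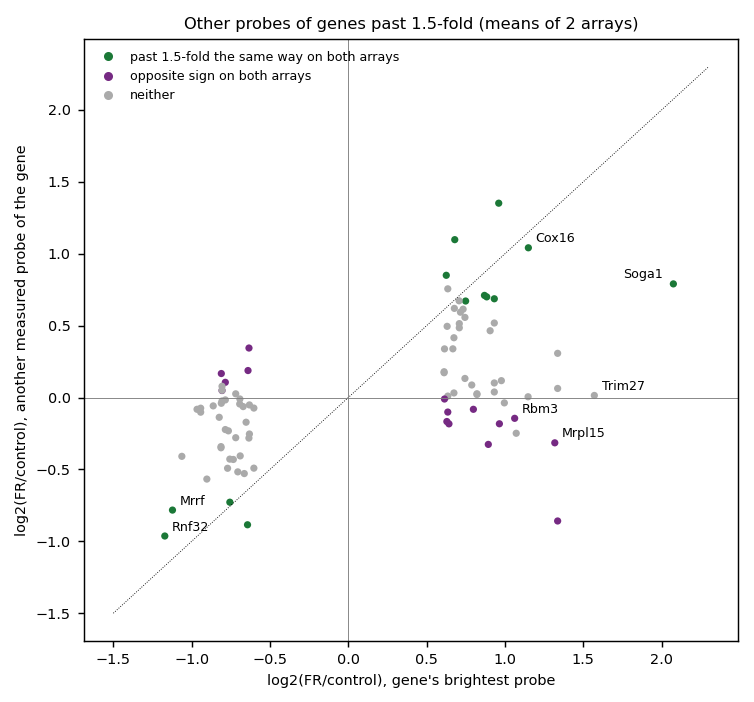
For 92 other measured probes of the 69 genes, log2(FR/control) of the gene's brightest probe (x axis) against that of the other probe (y axis), means of 2 arrays; green points are past the fold too (13), purple points have the opposite sign on both arrays (15). Cox16, Rnf32 and Mrrf lie near the dotted line of equality, Soga1 lies on the same side of 0 at 2.07 and 0.79, and Trim27, Rbm3 and Mrpl15 lie at or beyond 0.

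Markers of blood and of tissue next to the brain were compared as well, since a dissected brain can carry them. Of 7 measured erythroid genes 5 were positive on both arrays, as 28.3% of all genes were, and the median was 0.38 (0.18 with flagged spots kept). Fech, the last enzyme of haem synthesis, was at 0.41 and 0.90, the transferrin receptor Tfrc at 0.45 and 0.41 and the embryonic globin Hba-x at 0.66 and 0.11. Epb42 and Rhag were not well above background on both arrays in either pool, and Alas2 and the globin Hba-a1 were left out by the outlier flag (0.18 and 0.05, and 0.53 and -0.17, with it ignored). The liver and plasma protein list had Afp, the fetal plasma protein, past the fold (0.84 and 0.60), with 11 of 14 positive on both arrays and a median of 0.11, and FD had a median of 0.31. Col2a1 was past the fold in a cartilage and bone list of 16 measured genes with a median of 0.09. Cacng1, a muscle calcium channel subunit (0.97), was so in a skeletal muscle list of 24 with a median of 0.02. Cidea, a lipid droplet protein of brown fat (-0.68), was so in a brown fat list of 12 with a median of 0.03. Each was, like Afp, the only member of its list past the fold, against 1.01% of all genes. The mean level of 14 neutrophil genes was 7.62 in FR and 7.17 in its control, that of 6 erythroid genes 8.48 and 8.25, and that of 21 skeletal muscle genes 7.83 and 7.74. The part of these tissues in the results above was not tested. Among the 3 measured Y-linked genes of the sex-linked list, Ddx3y was at 0.66 and 0.35, Kdm5d at 0.01 and -0.19 and Uty at -0.12 and 0.08. Xist, the transcript of the inactive X chromosome, was well above background on both arrays in the FR pool but not on both in control, with 0.01 and -0.03 on its brightest probe.

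Few genes were detected in only one pool. Counting only genes none of whose probes was well above background in one pool while one was in the other, on both arrays, 5 were detected in the FR pool only, 0 of them with a symbol, and 12 in the control pool only, 6 with a symbol. The largest bounds among the named ones of the latter were at least 1.13-fold for Gbp4, an interferon-induced GTPase, and at least 1.09-fold for the lens protein Mip. No bound reached 1.5-fold, the largest being at least 1.48-fold for a transcript named by its Ensembl identifier. The genes past the fold were spread over the chromosomes, with 1.94% of the 618 genes measured on chromosome 16 and 0.238% of the 841 on chromosome 17 at the ends, among chromosomes with over 10 genes measured. Besides the stefin pair, 2 pairs of neighbours within 100 kb went the same way: Mettl16 and Srr, both lower (-0.71 and -0.81), and Dusp19 and 2210011G09Rik (-0.60 and -0.92). Wdr78 and the clone AK079803, also within 100 kb, went opposite ways (-0.99 and 0.98).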

How the data were processed

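The deposited scanner files hold the Cy3 and Cy5 mean intensity of each spot, written by the authors with Agilent Feature Extraction 9.5.3.1 per the submitters' processing notes, and a log10 ratio per spot, per the file headers. A deposited table of values holds log ratios that equal the scanner software's ratio converted to log2, up to sign, with column medians of -0.03, 0.03, -0.03 and 0.01. Its sign is that of the scanner's ratio where the treated pool is in Cy5 (r = 1). It is turned where the treated pool is in Cy3 (r = -1). The direction of the table is thus treated over control on each array. From the deposited intensities, log2 ratios were computed with limma 3.58.1 in R 4.3.3: spots whose local background exceeded the array's median more than 2 times were left out, normexp was run with an offset of 50, which understates the folds of dim probes, and loess was fitted within each array with control spots at weight 0. Control spots and spots with the scanner software's outlier flag were left out, spots of a probe were averaged, and the sign was turned to FR over control on the array with FR in Cy3. Channel levels are after Aquantile normalisation over the 4 arrays. Of 41174 probes, 26918 were named through their RefSeq identifier, 5082 by a current and 817 by an older symbol; for 8357 the name in the file stands. Members and gene lists were chosen with earlier results of these data known. Genes were named by rule: the 25 highest and 25 lowest with a symbol, list members past the fold, the 3 members of each list with the largest ratio of one sign on both arrays, the 5 largest bounds in each direction among genes detected in 1 pool, and genes with another probe past the fold or opposite, up to 10 each; exceptions are marked in the text, and some genes the rule takes are not reported here. Genes named to show the spread of a list, the threshold or neighbouring genes also lie outside it. Promoters are RefSeq's (GRCm38.p6); probe positions are the files' own (mm9); exons and untranslated regions were not analysed here. The calculation was tested on simulated data. The number of arrays limits the precision, and with 1 pool per condition it covers technical error only. Tables were handled in Python 3.11.15 with pandas 2.3.3 and numpy 2.4.6, and plotted with matplotlib 3.10.9. Alternatives varied the background, the normalisation, the filter, the outlier flag, the probe rule, the fold and the array left out.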

Additional observations from a re-analysis of the deposited data

Results flagged for a closer look

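Col2a1, the main collagen of cartilage, was singled out because both FR arrays lay above 0 (0.60 and 0.65) and both FD arrays below it (-0.09 and -0.22). The mean log2 ratios, 0.63 in FR and -0.16 in FD, are 0.781 apart. The difference was not tested, since each condition is 1 pool. The second Col2a1 probe, which overlaps the first on the genome, gave 0.69 and 1.01 in FR.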

How the results depend on the processing

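The number of genes past the fold depended on the processing more than the direction of each gene did. Against 108 higher and 80 lower genes (188 in all), fitting the background on all spots, bright-background ones included, left 9 and 4 (13), and median centring without loess 31 and 6 (37). The scanner software's log ratio and the deposited value table each gave 318 and 286 (604), and normexp with no offset, chosen after seeing the data, 237 and 196 (433). A 2-fold size on both arrays left 19 and 5 (24), and 1.5-fold in the mean of both arrays gave 181 and 159 (340). With a single array, the counts ranged from 276 to 317 higher, 240 to 303 lower and 516 to 620 in all. No background correction, no filter on dim probes, the brighter probes only, the median of a gene's probes and, added after seeing the data, flagged spots kept (117 higher and 104 lower) stayed within 1.5 times of the total. Of the 188 genes, 185 stayed past the fold with no background correction, 176 with flagged spots kept, 138 with the median of all probes, 30 with median centring and 12 with the background fitted on all spots. Among the 188, signs turned only with 1 array left out (1 gene without array 1, 5 without array 2) or flagged spots kept (5), where another probe can become the brightest. Of the named genes, Trim27 read -0.026 without array 1 and 1.44 without array 2, Ivns1abp 0.84 and -0.28, and Pold3 0.97 and -0.23; with flagged spots kept the last 2 read -0.26 and -0.10, and Hbp1 0.058. Every list whose median exceeded 0.1 in size in the mean and on both arrays kept its sign in all 12 settings. The cause of these shifts in counts was not tested. No paired analysis was possible because each condition is 1 pool and both arrays carry the same pools, so the result comes from no test. The number of arrays limits the precision, the arrays give technical error only, and a probe near background has a compressed ratio.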

Other observations

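Several groups not described above had medians near 0 with a few members apart. Among hypoxia and glycolysis genes, the collagen hydroxylase P4ha1 (-0.52 and -0.59), the lactate exporter Slc16a3 (-0.51 and -0.59) and the kinase Pdk1 (-0.64 and -0.41) were the farthest from 0, with 0 of 28 past the fold and a median of -0.01. Of 23 one-carbon metabolism genes 11 were positive and 2 negative on both arrays, against 28.3% and 27.4% of all genes. Gnmt, a glycine methyltransferase, was at 0.36 and the median was 0.06. The de novo DNA methyltransferase Dnmt3a was at -0.51 and the dioxygenase Tet3 at 0.43 in a list of 17 with a median of 0.02.

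Among 34 measured hypothalamic peptide and appetite genes, 14 were negative and 5 positive on both arrays, against 27.4% and 28.3% of all genes. The prohormone convertase Pcsk1 was at -0.51 and the enkephalin precursor Penk at -0.27. The immediate early gene Nr4a1 was at 0.47 and 0.48 in a list of 20 with a median of 0.00. Sort1, a sorting receptor for neurotrophins, was at 0.50, and the metallothionein Mt1 at 0.45 (0.60 in FD).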
